A study of Mus musculus with 21 samples.

Results

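The data described here are the transcriptomes of OT1 CD8 T cells after 10 days of culture in IL-15 at 50 IU/mL, set against the same cells after 10 days at 5 IU/mL. Every cell barcode of the 2 libraries was used: 6548 cells at 50 IU/mL and 5451 at 5 IU/mL, 11999 of the 106458 cells in the 21 libraries of the series. OT1 cells are mouse CD8 T cells that carry 1 transgenic T cell receptor, specific for a peptide of ovalbumin. They were taken as naive cells and activated on day 0 with beads coated with antibodies to CD3 and CD28. They were then kept in IL-15, IL-2 or IL-2v, a variant of IL-2, or without cytokine. Both libraries of this comparison thus share the activation and differ in the labelled dose of IL-15. The other groups used below are the naive library of day 0, the IL-15 libraries of days 3 and 5, and the IL-2 and IL-2v libraries of day 10, each cytokine at 5 and 50 IU/mL. Ranks over the 21 libraries also use those without cytokine and those of IL-2 and IL-2v on days 3 and 5. Each group is 1 library, with no label that says how many mice or cultures it came from. There is therefore no replicate error and no test between doses, and every interval below covers counting error only. The treatment label of the 50 IU/mL library names interleukin-16 where its title and the design text give IL-15, and the title was followed. The extraction text describes sorted cells from tumours, which differs from the culture that the growth text describes.

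IL-15 signals through the IL-2 receptor beta chain and the common gamma chain, which T cells use for IL-2 as well. These chains activate the kinases JAK1 and JAK3, which phosphorylate STAT5, and STAT5 switches on feedback inhibitors such as Cish and survival genes such as Bcl2. IL-15 is known in CD8 T cells for the survival and slow division of memory cells. Glycolysis turns glucose into pyruvate and lactate, and in activated T cells its genes are driven by mTORC1, MYC and the hypoxia-inducible factor HIF-1, which also drives genes outside glycolysis, such as Bnip3 and Vegfa.

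The 50 IU/mL library held 31864193 unique molecular identifiers (UMIs, tags that mark single captured RNA molecules) and the 5 IU/mL library 23311265, with medians of 4383 and 3927 UMIs per cell. Only 12 barcodes occurred in both libraries. Both were CD8 T cells by their markers: Cd3d was found in 97.7% and 98.6% of cells at 50 and 5 IU/mL, and Cd8b1 in 91.95% and 91.98%. Of the other lineage markers, Foxp3, Ncr1, Ms4a1, Pax5, Lyz2, Csf1r and the haemoglobin genes were at 0 UMIs in both libraries, and Cd4 had 0 and 4 UMIs. Exceptions were Trdc, at 181 and 264 CPM (UMIs scaled to a fixed total per library) with 257 in naive cells, and Ighm, at 237 and 385 CPM with 377 in naive cells. Klrb1c had 91 UMIs at 50 IU/mL and was listed at 0 at 5 IU/mL, and Tcrg-C1 was at 7.47 and 0.64 CPM. Cd68 had 39 and 21 UMIs, Itgam 18 and 0, Cd40lg 15 and 18, and Cd79a 7 and 19. Summed levels of the NK and gamma delta T cell markers were 192 and 265 CPM, nearly all of it Trdc. Those of the B cell markers were 246 and 391 CPM, nearly all of it Ighm, while the B cell marker Cd79b was at 9.29 and 4.50 CPM. Without the 591 and 167 cells that held a UMI of such a marker other than Ighm and Trdc, an alternative chosen after seeing the data, the gene counts given below were 181 higher and 127 lower. The lowest gene counts showed a gap: in the 5 IU/mL library 3 genes were found in 1 cell and 37 in 2 cells, against 463 in 3 cells, so a gene listed at 0 may have been seen in 1 or 2 cells. At 5 IU/mL 4398 of the 17516 genes were listed at 0, against 3455 at 50 IU/mL.

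Genes were compared by CPM of all UMIs of a library, as log2(CPM + 1) at 50 minus 5 IU/mL. This scale understates the difference of genes with low levels. Of 5437 genes with at least 20 CPM in either library, 181 (3.33%) were at least 2-fold higher at 50 IU/mL and 129 (2.37%) at least 2-fold lower. Higher genes thus made up 58.4% of those past 2-fold. The median over the 5437 genes was -0.14, and with TMM scaling, which moves that median to -0.0018, the counts were 228 higher and 90 lower, or 71.7% higher. Differences below are on the CPM scale, and a value between -0.14 and 0 changes sign under TMM scaling. In the list comparisons, which take genes with at least 5 CPM in either library, the same background was 4.42% of 8911 genes at least 2-fold higher, 2.3% at least 2-fold lower, 34.7% above 0 and a median of -0.14. In the lists as in this background, a gene could reach 5 CPM through the library where it was high.

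**Figure D1:**
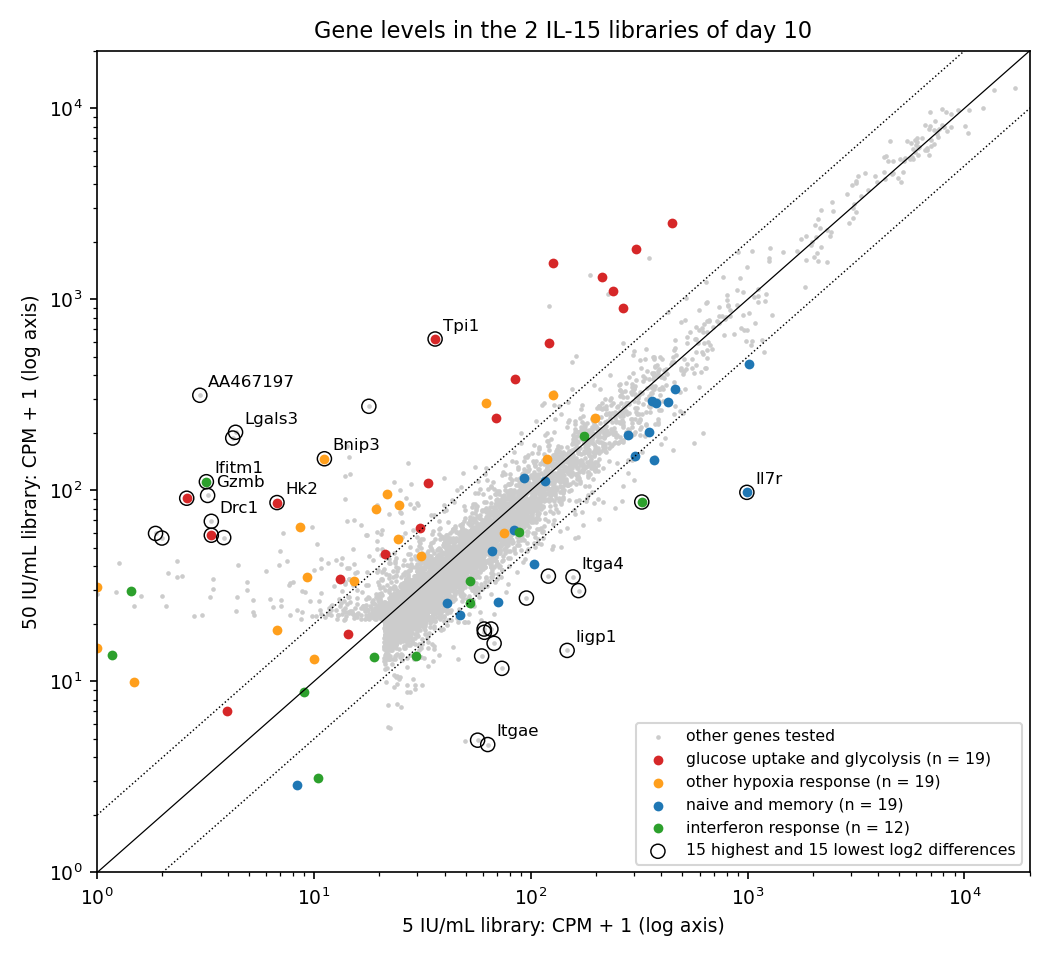
Level of each gene tested at 20 CPM (grey) at 5 IU/mL (x axis) and 50 IU/mL (y axis), as CPM + 1 on log axes, with 4 gene lists coloured (list genes with at least 5 CPM) and the 15 highest and 15 lowest differences circled. The solid line marks equal levels and the dotted lines a 2-fold difference: the glycolysis genes (red) lie above the diagonal, 17 of 19 of them by 2-fold, and Il7r, Itgae and Iigp1 lie far below it.

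Transcripts for glucose uptake and glycolysis were higher at 50 IU/mL as a group. All 19 genes of the list had a positive difference, against 34.7% of all genes at 5 CPM, and 17 of them were at least 2-fold higher, with none 2-fold lower and a median of 2.21. Their summed level was 11538 CPM at 50 IU/mL, 2018 CPM at 5 IU/mL and 1621 CPM in naive cells. The 5 IU/mL cells were thus near the naive level and the 50 IU/mL cells far above it.

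The difference ran along the whole pathway. Of the glucose transporters, Slc2a1 was at 33.3 CPM at 50 IU/mL and 12.2 CPM at 5 IU/mL, and Slc2a3 at 45.3 and 20.3 CPM. Hexokinase 2 (Hk2), which traps glucose in the cell, was at 85.3 and 5.75 CPM, a difference of 3.68, whereas Hk1 was at 62.2 and 29.7 CPM, a difference of 1.04. In the middle of the pathway, the aldolase gene Aldoa was at 1841 and 304 CPM, and its paralog Aldoc at 89.9 and 1.59 CPM, with 1.03 CPM in naive cells. Aldoc had the largest difference of the list, 5.14. Triose phosphate isomerase (Tpi1, chr6:124810586-124814296, GRCm38, minus strand) was at 619 and 35.2 CPM, a difference of 4.10.

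The enzymes that yield ATP and lactate followed. Phosphoglycerate kinase (Pgk1) was at 1546 CPM at 50 IU/mL and 125 CPM at 5 IU/mL, a difference of 3.62. Pyruvate kinase (Pkm) was at 1301 and 211 CPM, and lactate dehydrogenase A (Ldha) at 1111 and 239 CPM. The lactate exporter Slc16a3 (MCT4) was at 57.2 and 2.36 CPM, a difference of 4.12, while Slc16a1 (MCT1), a monocarboxylate transporter of the same family, was at 16.6 and 13.3 CPM, a difference of 0.30. Pfkm, at 5.96 and 2.96 CPM, was the other gene of the list under 2-fold on the log2(CPM + 1) scale. That scale understates its difference, because its levels are low. Gapdh was at 2514 and 447 CPM and Eno1 at 589 and 120 CPM, but Gapdh has 86 and Eno1 has 1 near-identical gene or pseudogene in the annotation, so their counts are uncertain.

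**Figure D2:**
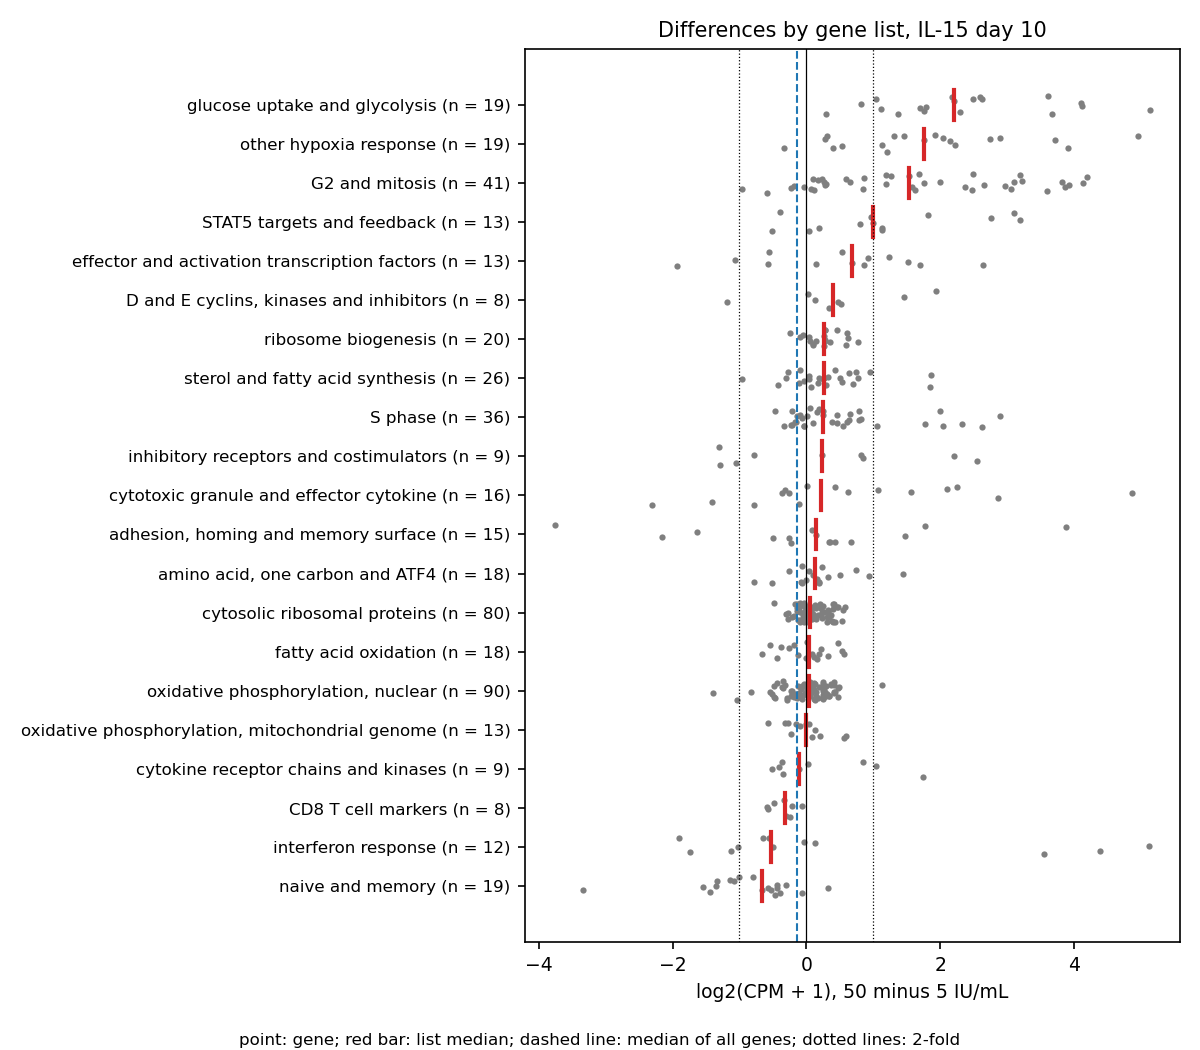
Difference in log2(CPM + 1), 50 minus 5 IU/mL (x axis), for every gene with at least 5 CPM in 21 gene lists (rows, ordered by median). Points are genes, red bars list medians, the dashed line the median of all genes (-0.14) and the dotted lines 2-fold: the glycolysis list has the highest median (2.21) and the naive and memory list the lowest (-0.66).

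The higher glycolysis level was found in most cells. After each cell was thinned to 2000 UMIs, which left out 110 and 57 shallower cells, the median cell held 23 UMIs of the 19 genes at 50 IU/mL (5th to 95th percentile 8 to 38) and 4 at 5 IU/mL (1 to 8). The naive median was 3. Of the 50 IU/mL cells, 94.0% (95% Clopper-Pearson interval 93.4% to 94.6%) held more than 8 UMIs, the 95th percentile of the 5 IU/mL cells, against 2.80% of the 5 IU/mL cells themselves. At the other end, 172 cells of the 50 IU/mL library (2.67%) held 5 UMIs or fewer, the range in which 77.7% of the 5 IU/mL cells lay. The median at 50 IU/mL was 23 both in cells with and in cells without a UMI of the cycling markers Mki67 or Top2a. A thinned cell without such a UMI can still have been cycling, so these medians do not separate cycling from resting cells.

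**Figure D3:**
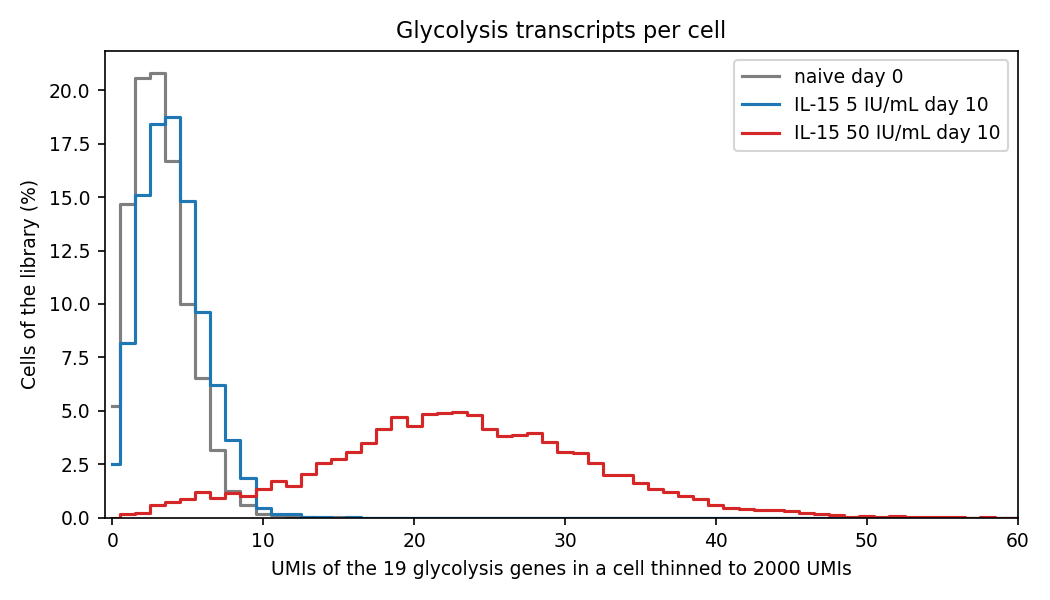
Share of cells (y axis, percent of the library) by the number of UMIs of the 19 glycolysis genes in a cell thinned to 2000 UMIs (x axis), for naive cells (grey), 5 IU/mL (blue) and 50 IU/mL (red). The naive and 5 IU/mL curves overlap, with medians of 3 and 4 UMIs, and the 50 IU/mL curve is broad, with a median of 23.

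Genes of the hypoxia response outside the glycolysis list, mostly known targets of HIF-1, were also mostly higher. This list also holds Hif1a itself and Pfkfb3, a regulator of glycolysis. Of 22 genes on this list 19 reached 5 CPM, and 14 of the 19 were at least 2-fold higher and none 2-fold lower, with a median of 1.76. A gene could reach 5 CPM through the library where it was high, as P4ha2, Ak4 and Vegfa did. The summed level over all 22 genes was 1755 CPM at 50 IU/mL, 747 CPM at 5 IU/mL and 687 CPM in naive cells. Bnip3, which encodes a mitochondrial protein that promotes mitophagy, was at 145 CPM at 50 IU/mL and 10.2 CPM at 5 IU/mL, a difference of 3.71, with 2.38 CPM in naive cells. It shares 22.3% of its exonic bases with Gm45507 on the other strand. Ndrg1 was at 63.2 and 7.59 CPM, and Vegfa, the vascular growth factor, at 8.88 and 0.47 CPM. The prolyl hydroxylase genes Egln1 and Egln3, whose products mark HIF for degradation, had differences of 1.76 and 1.92, with Egln1 at 82.6 and 23.7 CPM. P4ha2, a collagen prolyl hydroxylase, had 957 UMIs at 50 IU/mL and was listed at 0 at 5 IU/mL. Ak4, a mitochondrial adenylate kinase, had 447 UMIs at 50 IU/mL and was listed at 0 at 5 IU/mL. No ratio of CPM is given for either, because a ratio to 0 is undefined. On the log2(CPM + 1) scale both were counted among the 14 higher genes and lie above the list's median. P4ha2 had the largest difference of the list, 4.96. The mRNA of Hif1a itself was at 58.7 and 74.3 CPM, a difference of -0.34, and Pdk1, Bnip3l, Ankrd37 and Kdm3a were under 2-fold.

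The promoters of these genes are shown because the core sequence that HIF-1 binds, ACGTG, can be counted in them. The RefSeq promoter table of GRCm38.p6 spans 250 bases before to 50 bases after a start site. Only the first start listed for a gene was used. A gene with several starts and no match, such as Vegfa, may thus hold a match at another start. ACGTG was found on either strand in 10 of 18 glycolysis promoters (55.6%). It was found in 11 of 16 promoters of the other hypoxia response list (68.8%), those of Hif1a and Pfkfb3 among them. It was found in 28.0% of the 4377 promoters of tested genes that the table holds, in 37.5% of the 144 promoters of genes at least 2-fold higher, and in 15.8% of the 95 promoters of genes at least 2-fold lower. A match shows letters and not binding. One list was chosen mostly as known HIF-1 targets, and HIF-1 also drives glycolysis genes, so a high share in both lists was likely beforehand. It does not bear on the 2 libraries. The genes at least 2-fold higher include members of both lists, so their share is not independent. The sequences of Pgk1 (chrX:106186850-106187149, plus strand), Slc16a3 (chr11:120948817-120949116, plus strand) and Bnip3 (chr7:138909457-138909756, minus strand) follow, each 5′ to 3′ along the gene's strand, with matches on either strand in capitals. In Bnip3 the capitals are CACGTG, a palindrome that holds the core on both strands and is the E-box that MYC binds as well, found in 481 of the 4377 promoters of tested genes.
Pgk1: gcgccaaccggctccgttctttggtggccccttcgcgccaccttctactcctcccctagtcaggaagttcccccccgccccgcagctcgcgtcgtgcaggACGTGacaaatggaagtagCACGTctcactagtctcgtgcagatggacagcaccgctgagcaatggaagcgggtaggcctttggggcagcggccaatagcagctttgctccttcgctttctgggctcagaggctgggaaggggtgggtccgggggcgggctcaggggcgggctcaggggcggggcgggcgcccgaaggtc
Slc16a3: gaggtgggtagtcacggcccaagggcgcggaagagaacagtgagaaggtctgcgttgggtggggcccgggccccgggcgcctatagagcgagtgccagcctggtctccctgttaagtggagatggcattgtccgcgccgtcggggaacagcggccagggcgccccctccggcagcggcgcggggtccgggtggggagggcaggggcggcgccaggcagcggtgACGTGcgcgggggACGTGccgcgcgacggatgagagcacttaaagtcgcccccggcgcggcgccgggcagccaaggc
Bnip3: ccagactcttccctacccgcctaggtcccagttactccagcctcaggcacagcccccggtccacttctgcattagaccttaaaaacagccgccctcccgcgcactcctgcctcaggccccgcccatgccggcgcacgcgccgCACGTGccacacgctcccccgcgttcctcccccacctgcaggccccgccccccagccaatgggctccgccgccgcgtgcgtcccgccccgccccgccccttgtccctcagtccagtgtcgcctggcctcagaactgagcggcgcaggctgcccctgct

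Targets and feedback inhibitors of STAT5 were higher, in part. Of 13 genes 6 were at least 2-fold higher and none 2-fold lower, with a median of 0.99, and 8 were 2-fold higher under TMM scaling. Cish, an inhibitor of cytokine receptor signalling, was at 117 CPM at 50 IU/mL, 12.8 CPM at 5 IU/mL and 4.71 CPM in naive cells, a difference of 3.10. Socs2, of the same family, was at 39.8 and 3.47 CPM, and the cytokine gene Osm at 32.2 and 3.90 CPM. Socs1 was at 231 and 105 CPM, the kinase gene Pim1 at 278 and 127 CPM, and the survival gene Bcl2l1 at 23.9 and 6.05 CPM. Bcl2, at 1015 and 517 CPM, and Ccnd2, at 852 and 427 CPM, lay just under 2-fold, with differences of 0.97 and 0.99. Mcl1, another survival gene, was at 181 and 259 CPM, and Socs3 at 28.6 and 27.8 CPM.

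By cells thinned to 2000 UMIs, Cish was found in 19.4% (18.5% to 20.4%) at 50 IU/mL, 2.17% (1.80% to 2.59%) at 5 IU/mL and 0.783% of naive cells. Bcl2 was found in 85.7%, 53.8% and 28.8%. The promoter of Cish (chr9:107296409-107296708, plus strand) is shown because it holds 2 matches to TTCNNNGAA, the spaced palindrome that STAT dimers bind, whose first bases lie 11 bases apart at the RefSeq start site (capitals). The motif was found in 2 of 9 promoters of the STAT5 list (22.2%) and in 6.63% of the promoters of tested genes. It was in 5.56% of those of the higher genes, 8.42% of those of the lower genes and 2 of 16 of the naive and memory list (12.5%). The 2 promoters of the STAT5 list are those of Cish and Socs3. That list was chosen as STAT5 targets and feedback inhibitors, so a high share was likely beforehand. The share does not bear on the 2 libraries.
Cish: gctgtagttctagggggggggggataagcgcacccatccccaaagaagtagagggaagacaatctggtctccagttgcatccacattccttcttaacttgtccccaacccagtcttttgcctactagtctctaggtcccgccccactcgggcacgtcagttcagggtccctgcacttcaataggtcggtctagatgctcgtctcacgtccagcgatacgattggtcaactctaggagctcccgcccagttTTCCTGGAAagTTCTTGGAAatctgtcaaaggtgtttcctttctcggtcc

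Among the receptor chains and kinases that carry the signal, 2 of 9 genes were at least 2-fold higher and none lower, with a median of -0.11. The beta chain Il2rb was at 275 CPM at 50 IU/mL and 134 CPM at 5 IU/mL, and the IL-2 receptor alpha chain Il2ra, which IL-15 does not use, at 57.2 and 16.4 CPM. The common gamma chain Il2rg was at 234 and 302 CPM, and Il15ra, which presents IL-15, at 10.8 and 14.7 CPM. Jak3 was at 19.8 and 10.6 CPM, and Stat5a and Stat5b were at 18.1 and 19.6 CPM and at 27.8 and 40.1 CPM.

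Genes of naive and memory T cells were lower at 50 IU/mL. Of 20 genes 19 reached 5 CPM, 8 of the 19 were at least 2-fold lower and none higher, with a median of -0.66, and 6 were 2-fold lower under TMM scaling. Dapl1 was the only one of the 19 with a positive difference, 0.33. Their summed level was 2896 CPM at 50 IU/mL, 5556 CPM at 5 IU/mL and 6509 CPM in naive cells.

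The IL-7 receptor alpha chain Il7r (chr15:9505788-9530176, GRCm38, minus strand), which naive and memory cells need for survival, was at 96.6 CPM at 50 IU/mL, 991 CPM at 5 IU/mL and 446 CPM in naive cells, a difference of -3.34. The 5 IU/mL library had the highest Il7r level of all 21 libraries, and the 50 IU/mL library ranked 15, counted from the highest. In thinned cells Il7r was found in 16.3% (15.4% to 17.2%) at 50 IU/mL, 74.9% (73.7% to 76.1%) at 5 IU/mL and 45.5% of naive cells.

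The transcription factors of this state were lower by less. Tcf7, which encodes TCF-1, was at 144 CPM at 50 IU/mL and 369 CPM at 5 IU/mL, a difference of -1.36, and was found in 23.7% and 48.2% of thinned cells. Klf2, which drives the lymph node homing genes, was at 460 and 1016 CPM, and Id3 at 40.0 and 103 CPM. Lef1, Foxp1, Bach2, Satb1 and Foxo1 were under 2-fold, with differences from -0.79 for Lef1 to -0.06 for Foxo1. Of the homing receptors, Ccr7 was at 150 and 302 CPM, a difference of -1.01, and S1pr1 at 288 and 428 CPM, a difference of -0.57. Slamf6 had a difference of -1.45, Il6st was at 21.2 and 46.1 CPM and Myb at 1.88 and 7.38 CPM. In thinned cells the median number of UMIs of the list was 6 at 50 IU/mL, 11 at 5 IU/mL and 13 in naive cells.

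**Figure D4:**
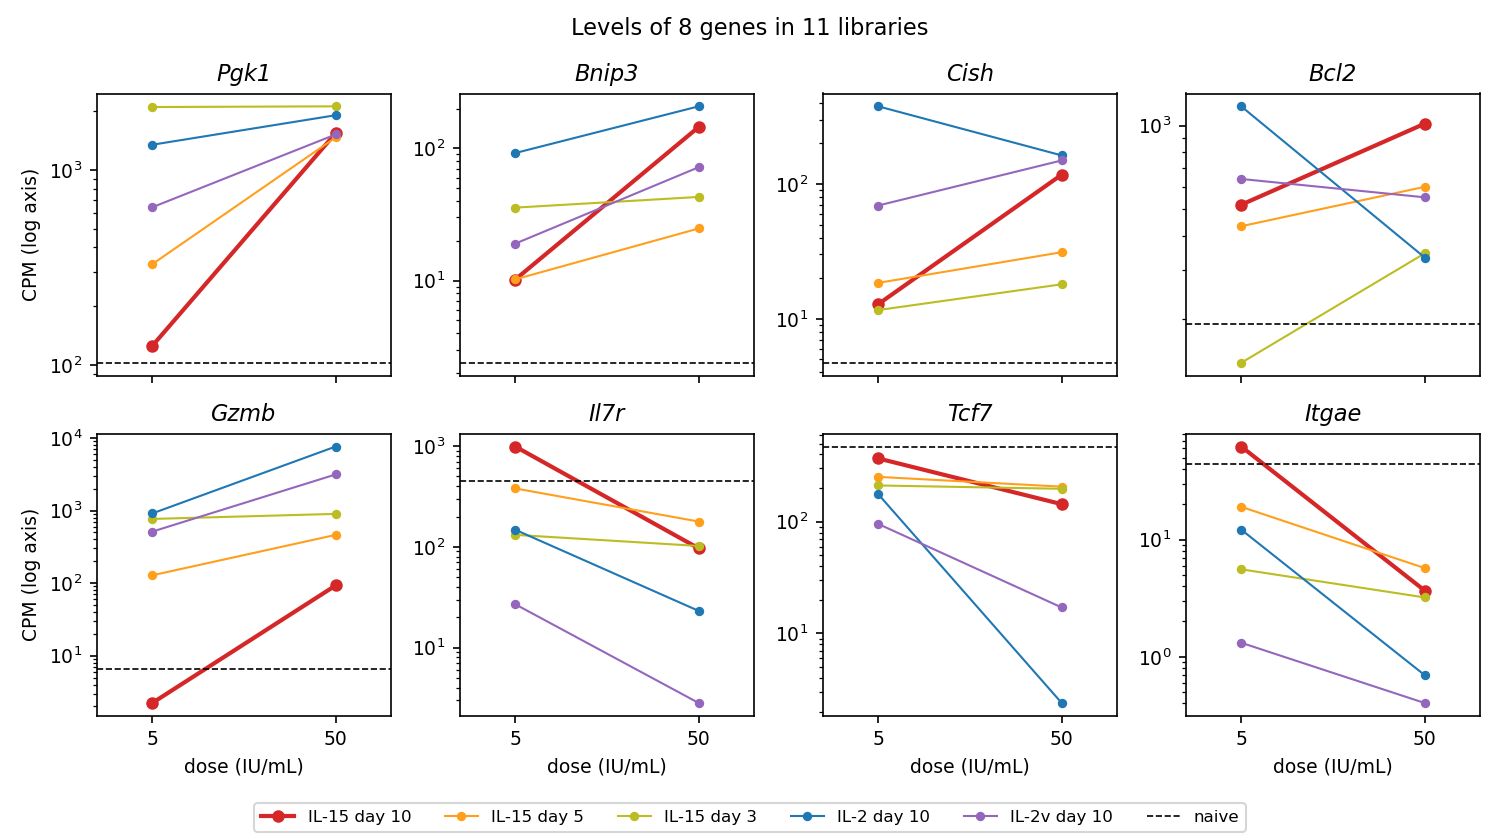
Level in CPM (y axis, log scale, not starting at 0) of 8 genes at 5 and 50 IU/mL (x axis), in the IL-15 step of day 10 (thick red line) and in 4 other dose steps, each point 1 library; the dashed line is the naive library. Pgk1, Bnip3, Cish, Bcl2 and Gzmb are higher at 50 than at 5 IU/mL of IL-15 on day 10, and Il7r, Tcf7 and Itgae lower.

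Cytotoxic genes differed in both directions. Of 19 genes 16 reached 5 CPM, with 6 at least 2-fold higher, 2 lower and a median of 0.22. Gzmb, Tnf, Gzmm and Serpinb6b reached 5 CPM only at 50 IU/mL, and Gzmk and Ccl4 only at 5 IU/mL. The filter thus let these genes in through the library where they were high. Granzyme B (Gzmb, chr14:56258838-56262260, GRCm38, minus strand), a protease that kills target cells, was at 93.1 CPM at 50 IU/mL, 2.23 CPM at 5 IU/mL and 6.50 CPM in naive cells. It was found in 14.3% (13.4% to 15.1%) of thinned cells at 50 IU/mL, 0.297% (0.170% to 0.481%) at 5 IU/mL and 0.760% of naive cells. The 50 IU/mL level ranked 18 of the 21 libraries, counted from the highest. Perforin (Prf1), which opens the target membrane, was at 21.4 and 9.74 CPM with 40.0 CPM in naive cells, so both doses lay below the naive level. Tnf was at 15.2 and 2.40 CPM, Fasl at 19.4 and 5.88 CPM, Gzmm at 7.94 and 1.07 CPM, and the granzyme inhibitor Serpinb6b at 21.3 and 2.06 CPM. Gzmk, a granzyme of memory cells, was lower, at 0.41 and 5.96 CPM, as was the chemokine gene Ccl4, at 1.98 and 6.91 CPM. Ifng was under 5 CPM in both libraries, at 1.35 and 1.42 CPM, and Ccl5 was at 607 and 1042 CPM.

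Of the effector and activation transcription factors, 13 of 21 reached 5 CPM, with a median of 0.68, and 4 of the 13 were past 2-fold upwards and 2 downwards. With TMM scaling these counts were 5 and 1, and the median over all 21 genes without the filter was -0.0011. Tbx21, which encodes T-bet, had a difference of 1.52, and its relative Eomes, which sustains the IL-15 receptor beta chain in memory cells, was at 48.3 CPM at 50 IU/mL and 14.2 CPM at 5 IU/mL. Bhlhe40 was at 26.7 and 3.43 CPM and Nfil3 at 9.85 and 3.60 CPM. Tox, a factor linked to exhaustion, was at 4.74 and 21.0 CPM with 93.6 CPM in naive cells, and Ikzf2 at 17.8 and 38.4 CPM. Prdm1, which encodes BLIMP-1, was at 3.04 and 3.39 CPM, and Zeb2 at 0.16 and 0.77 CPM, both under 5 CPM.

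Among 9 inhibitory receptors and costimulators with at least 5 CPM, 2 were at least 2-fold higher and 3 lower. Cd160 was at 39.5 and 5.92 CPM and Tnfrsf9, which encodes 4-1BB, at 7.53 and 0.86 CPM. Lag3 was at 1.51 and 5.10 CPM, Ctla4 at 24.6 and 52.2 CPM, and the costimulator Cd28 at 50.1 and 125 CPM. Pdcd1 (PD-1) was at 0.28 and 0.86 CPM, Tigit had 7 and 5 UMIs, and Havcr2 (TIM-3) was listed at 0 at 50 IU/mL with 3 UMIs at 5 IU/mL, so these receptors of exhausted cells were near or under the detection limit at both doses. Under TMM scaling 1 gene of this list was 2-fold lower.

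Surface receptors for adhesion and homing were split, with 3 of 15 genes at least 2-fold higher and 3 lower. Itgae (CD103, chr11:73090583-73147446, GRCm38, plus strand), the integrin chain that binds E-cadherin on epithelium, was at 3.67 CPM at 50 IU/mL, 62.2 CPM at 5 IU/mL and 43.8 CPM in naive cells. Its difference of -3.76 was the lowest of all named genes, and the 5 IU/mL level was the highest of the 21 libraries. It was found in 0.792% and 10.6% of thinned cells. The integrin chain Itga4 was at 34.2 and 156 CPM and Ly6a (Sca-1) at 199 and 621 CPM. In the other direction, the chemokine receptor gene Ccr2 was at 55.6 and 2.83 CPM. The activation and memory marker Cd44 was at 42.1 and 11.6 CPM, and Cxcr3 at 74.4 and 106 CPM.

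Interferon response genes were split by gene, with 3 of 12 at least 2-fold higher, 4 lower and a median of -0.53. Ifit3 was at 2.10 CPM at 50 IU/mL and 9.39 CPM at 5 IU/mL, Isg20 at 12.6 and 28.7 CPM and Gbp2 at 24.8 and 51.6 CPM. The interferon-inducible GTPase genes Iigp1 and Irgm1, which are not on the list but are among the 15 lowest differences, were at 13.5 and 146 CPM and at 26.3 and 94.4 CPM. The 50 IU/mL level of Iigp1 was the lowest of the 21 libraries. By contrast the 3 Ifitm genes, whose products block virus entry, were higher: Ifitm1 was at 110 and 2.19 CPM, Ifitm2 at 28.8 and 0.43 CPM, and Ifitm3 at 12.7 and 0.17 CPM. Ifitm1 and Ifitm2 have near-identical pseudogenes. Under TMM scaling 2 genes of the list were 2-fold lower and 3 higher.

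Transcripts of G2 and mitosis were higher at 50 IU/mL, and so were some of S phase. Of 41 G2 and mitosis genes with at least 5 CPM, 24 were at least 2-fold higher and none lower, with a median of 1.53, and of 36 S phase genes 7 were higher and none lower, with a median of 0.25. A gene could reach 5 CPM through the library where it was high, and over all 54 and all 42 genes of these lists, with no filter, the medians were 1.48 and 0.46. With the filter, the S phase median changed sign, to -0.029, without cells of more than 2 times the median UMIs, and to -0.073 for the mean of single-cell CPM. Mki67, a marker of dividing cells, was at 41.4 and 1.33 CPM with 15.2 CPM in naive cells, and the spindle gene Nusap1 at 36.0 and 1.12 CPM. Top2a, which untangles DNA, was at 121 and 13.7 CPM, and the S phase gene Rrm2 at 18.6 and 1.63 CPM. The replication helicase genes Mcm2, Mcm4 and Mcm6 were within 2-fold, with differences from -0.07 to 0.00.

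A UMI of Mki67 or Top2a was found in 7.83% (7.18% to 8.51%) of 6438 thinned cells at 50 IU/mL, 2.65% (2.24% to 3.12%) of 5394 at 5 IU/mL and 2.04% of naive cells. Another rule was at least 3 UMIs of the S phase and mitosis lists together. By it the order was reversed, with 64.4% of cells at 50 IU/mL and 81.4% at 5 IU/mL. Most cells of both libraries passed this rule, so it cannot single out cycling cells. Summed levels at 50 and 5 IU/mL were 969 and 809 CPM for the S phase list and 2009 and 1469 CPM for G2 and mitosis. Cells with more than 2 times the median UMIs of their library can hold dividing cells or doublets. Of these, 27.2% of 453 at 50 IU/mL and 2.46% of 244 at 5 IU/mL held a UMI of Mki67 or Top2a. In the remaining cells the shares were 6.37% and 2.66%. In cells without a UMI of Mki67 or Top2a, the list medians were -0.31 for G2 and mitosis and -0.56 for S phase, over the 21 and 29 genes that then reached 5 CPM. This choice, on unthinned counts, left out 13.1% of cells at 50 IU/mL and 5.21% at 5 IU/mL. Cells were thus picked by 2 cell cycle genes, and lower medians of these lists were likely beforehand. Of the cyclins and their regulators, Cdk6, a kinase of the G1 phase, was at 107 and 27.1 CPM, Ccne2 at 7.06 and 1.93 CPM, and the inhibitor Cdkn1b (p27) at 88.8 and 203 CPM.

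Few genes of other metabolic programmes were past 2-fold. Of 20 ribosome biogenesis genes, however, 17 were above 0, and of 26 sterol and fatty acid synthesis genes 19. The share over all genes was 34.7%. The summed level of ribosome biogenesis genes was 3909 CPM at 50 IU/mL and 2682 CPM at 5 IU/mL. Of 90 nuclear genes of oxidative phosphorylation, 1 was at least 2-fold higher (Ndufv3, 338 and 154 CPM) and 2 lower (Ndufa4, 112 and 297 CPM, and Sdhaf1, 19.9 and 42.0 CPM), with a median of 0.05. None of the 13 mitochondrially encoded genes, 18 fatty acid oxidation genes, 20 ribosome biogenesis genes or 80 cytosolic ribosomal protein genes with at least 5 CPM was past 2-fold, with medians of -0.01, 0.05, 0.27 and 0.05. For amino acid, one-carbon and ATF4 genes the median was 0.13 with 1 of 18 higher, Mthfd1l, at 40.4 and 14.2 CPM. The amino acid transporter genes Slc7a5 and Slc3a2, which serve mTORC1, were at 9.70 and 9.44 CPM and at 63.2 and 75.5 CPM. For sterol and fatty acid synthesis the median was 0.26 with 2 of 26 higher, among them Scd2, at 38.2 and 9.82 CPM.

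The largest differences among genes with at least 50 CPM included several outside these lists. The highest was AA467197 (chr2:122636986-122641191, GRCm38, plus strand), at 314 CPM at 50 IU/mL, 1.97 CPM at 5 IU/mL and 0.38 CPM in naive cells, a difference of 6.73. It was found in 35.4% (34.2% to 36.6%) and 0.260% (0.142% to 0.435%) of thinned cells. Lgals3, which encodes the sugar-binding protein galectin-3, was at 200 and 3.35 CPM, and the annexin gene Anxa2 at 187 and 3.22 CPM. For both, the 5 IU/mL level was the lowest of the 21 libraries, as it was for Gzmb and Ccr2. S100a4 was at 274 and 16.9 CPM and shares 51.7% of its exonic bases with Gm42674 on the same strand. Drc1, which encodes a regulator of ciliary dynein, was at 67.9 and 2.36 CPM, and the 50 IU/mL level was the highest of the 21 libraries. Pclaf and the histone gene Hist1h1b, both used in DNA replication, were at 55.3 and 0.99 CPM and at 58.5 and 0.86 CPM. Histone genes lie in clusters of similar genes, so Hist1h1b was held uncertain, although the search for near-identical copies listed none for it.

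On the low side, Gm43698 was at 3.92 CPM at 50 IU/mL and 55.8 CPM at 5 IU/mL, the ADP-ribosyltransferase gene Art2b at 10.7 and 72.5 CPM, and Rflnb at 28.9 and 165 CPM. Tent5c was at 12.6 and 58.3 CPM, Thada at 17.8 and 64.4 CPM, and Emc9 at 17.8 and 59.9 CPM. Znrf1, at 34.6 and 119 CPM, shares 32.0% of its exonic bases with Ldhd on the other strand, and 1110008P14Rik, at 17.1 and 60.1 CPM, shares 27.0% with Ciz1. Gm14085, at 14.8 and 66.7 CPM, has a near-identical copy in Slc28a2 and is uncertain. For 10 of the 15 lowest genes the 5 IU/mL level was the highest of the 21 libraries.

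Within the 50 IU/mL library, cells with and without a UMI of these transcripts had close medians of glycolysis UMIs. This cannot show that cells with and without expression are alike, because thinning leaves many expressing cells without a UMI. Il7r, for example, was found in 16.3% of the 50 IU/mL cells after thinning and in 29.2% without it. After thinning, cells with a UMI of Gzmb had a median of 25 UMIs of the glycolysis genes and cells without 22.5. For Anxa2 the medians were 26 and 22, for Lgals3 24 and 22, and for AA467197, Cish, Il7r and Tcf7 23 in both. Each of these medians was above the 4 UMIs of the 5 IU/mL cells.

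The same dose step was then read in libraries that this comparison did not use. The IL-15 step of day 3 showed 1 gene at least 2-fold higher (0.0176% of 5697) and 0 lower, and that of day 5 showed 116 higher (2.13% of 5434) and 13 lower (0.239%). Of the 3 IL-15 steps, that of day 10 thus had the most genes past 2-fold. The day 5 step shared 57 of the 181 genes that were higher on day 10, which is 31.5% of these and 49.1% of the 116. The sign was positive on day 5 for 168 of the 181, against 61.5% of all genes tested on day 5, with a median of 0.74 against 1.78 on day 10. Of the 129 lower genes, 7 were also at least 2-fold lower on day 5.

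The levels show which library moved. Pgk1 was at 2119 and 2102 CPM at 50 and 5 IU/mL on day 3, 1469 and 328 CPM on day 5, and 1546 and 125 CPM on day 10. The median of glycolysis UMIs in a thinned cell was 26 and 25 on day 3, 17 and 5 on day 5, and 23 and 4 on day 10. Il7r was at 102 and 132 CPM on day 3, 178 and 380 CPM on day 5, and 96.6 and 991 CPM on day 10. For these genes the 5 IU/mL libraries differed more between days than the 50 IU/mL libraries, and the 5 IU/mL level of day 10 was near the naive level of 102 CPM for Pgk1 and above that of 446 CPM for Il7r. The share of cells with a UMI of Mki67 or Top2a was lower on each later day at both doses, at 49.2% and 46.9% on day 3, 19.4% and 14.9% on day 5, and 7.83% and 2.65% on day 10.

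Some day 5 differences were not seen on day 10. The sterol and fatty acid synthesis list had a median of 1.54 on day 5, with 19 genes at least 2-fold higher (background 2.76% on day 5), against 0.26 and 2 genes on day 10. Its sterol synthesis gene Hmgcs1 had a difference of 2.09 on day 5 and -0.10 on day 10, and Scd2 differed by 1.78 and 1.86.

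**Figure D5:**
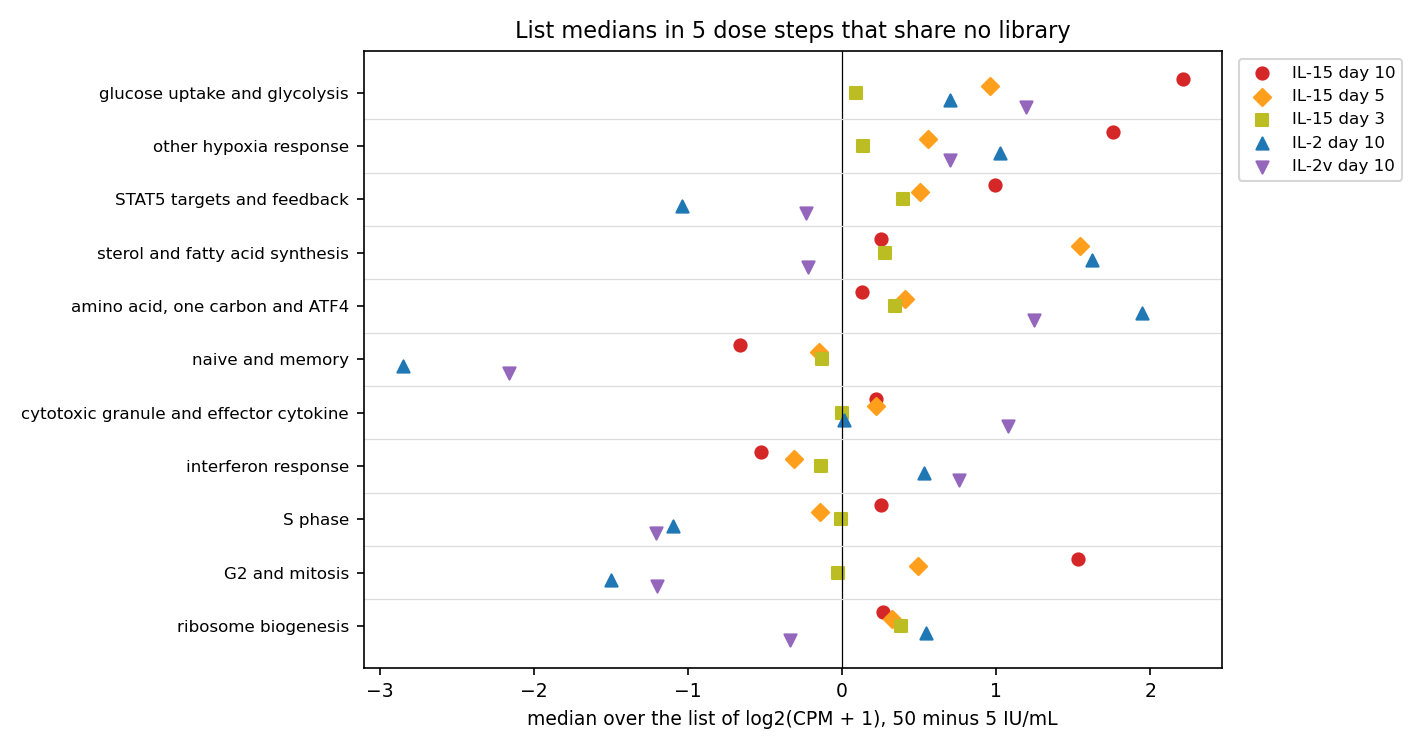
Median over each of 11 gene lists (rows) of log2(CPM + 1), 50 minus 5 IU/mL (x axis), in 5 dose steps (colours and shapes), each from 2 libraries and with no library in common. The IL-15 step of day 10 (red circles) has the highest glycolysis median (2.21), and its medians for STAT5 targets and for G2 and mitosis (0.99 and 1.53) have the opposite sign to those of the IL-2 step of day 10 (-1.04 and -1.50).

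With IL-2 on day 10 the step from 5 to 50 IU/mL was larger in number of genes, with 383 of 5832 genes past 2-fold upwards (6.57%) and 847 downwards (14.5%). The IL-2v step had 282 of 5618 upwards (5.02%) and 345 downwards (6.14%). Of the 181 genes higher in the IL-15 step, 40 (22.1%) passed 2-fold in the same direction in the IL-2 step and 31 in the opposite one. Over all genes of the IL-2 step the shares were 6.57% upwards and 14.5% downwards, so the 31 lie near the background. In the IL-2v step the counts were 48 (26.5%) and 28, against 5.02% upwards and 6.14% downwards over all genes. Of the 129 lower genes, 47 (36.4%) were also lower in the IL-2 step and 2 were higher. With IL-2v 14 (10.9%) were lower and 4 higher. Glycolysis genes were higher at 50 IU/mL with each cytokine, with list medians of 2.21 (IL-15), 0.70 (IL-2) and 1.19 (IL-2v) and with 17 of 19, 3 of 19 and 11 of 18 genes past 2-fold upwards and none downwards. With TMM scaling the IL-2 step had a median of 1.02, with 9 of 18 genes past 2-fold. In this order, thinned cells at 50 IU/mL held a median of 23, 34 and 25 UMIs of them. The 5 IU/mL libraries differed more, with 4, 18 and 9 UMIs. Naive and memory genes were lower with each, with medians of -0.66, -2.85 and -2.16. The difference of Tcf7, -1.36 in the IL-15 step, was -5.71 in that of IL-2 and -2.42 in that of IL-2v.

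For STAT5 targets the medians were 0.99 (IL-15), -1.04 (IL-2) and -0.23 (IL-2v), with 6, 1 and 1 of 13 genes past 2-fold upwards and 0, 7 and 1 downwards. For G2 and mitosis genes they were 1.53, -1.50 and -1.20. For IL-15, IL-2 and IL-2v in this order, the difference of Bcl2 was 0.97, -1.81 and -0.22, that of Myc 0.81, -2.99 and -1.26, and that of Mki67 4.19, -1.54 and -1.32. The share of thinned cells with a UMI of Mki67 or Top2a was 8.31% and 11.8% at 50 and 5 IU/mL of IL-2 and 17.7% and 31.4% with IL-2v, so the 2.65% at 5 IU/mL of IL-15 was the lowest of the 6 cytokine libraries of day 10.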

How the data were processed

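The authors deposited 1 table of UMI counts per library, genes by cell barcodes, with whole numbers from 17516 gene symbols. Per the submitters' processing notes, Cell Ranger, Seurat 3.0.2 and Seurat 4.0.1 were used with the build mm10, with no role or order stated. Doublet removal is not given in the sources used here. Every barcode had over 1000 UMIs and at most 10% mitochondrial UMIs, so the tables appear filtered. No doublet caller was run, and cells with more than 2 times the median UMIs were left out as an alternative.

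Counts were summed per library and scaled to CPM, with a pseudocount of 1 CPM on the log2 scale. With 1 library per group there is no test. Called means at least 2-fold among genes with at least 20 CPM in either library, and list members needed 5 CPM. The text names the 15 highest and 15 lowest differences among genes with at least 50 CPM, and members of 20 programme and 6 marker lists. Members and lists were chosen with earlier results of these data known. Cells were thinned to 2000 UMIs for shares and scores per cell (naive median 3799 UMIs before thinning). Intervals are exact 95% Clopper-Pearson intervals. PCR copies are collapsed by UMI, and intervals cover counting error only. Coordinates are from GENCODE vM21 (GRCm38, the assembly of mm10), overlaps between exons likewise. Promoters are from RefSeq (GRCm38.p6), at the first start listed for each gene. Near-identical copies were sought with BLAST+ 2.17.0 at 95% identity over 200 bases. Scaling alternatives used edgeR 4.0.16 (TMM) and DESeq2 1.42.0 (size factors). Other alternatives changed the cells kept, the pooling, the pseudocount and the filter. The script for gene calls was checked on simulated data. Python 3.11.15, numpy 2.4.6 and scipy 1.17.1 were used. Some genes that belong to the lists or to the named genes are not reported here by name.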

Additional observations from a re-analysis of the deposited data

Results flagged for a closer look

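In 3 gene lists the IL-15 step of day 10 and another cytokine's step of day 10 moved in opposite directions, by medians of at least 0.5 each. These differences between cytokines were not tested, because each step is 2 libraries. The median of STAT5 targets was 0.99 with IL-15 and -1.04 with IL-2. For G2 and mitosis it was 1.53 in the IL-15 step, against -1.50 (IL-2) and -1.20 (IL-2v), over 41, 53 and 54 genes with at least 5 CPM in either library of the step. Over all 54 genes the IL-15 median was 1.48. For the interferon response it was -0.53 in the IL-15 step, against 0.53 (IL-2) and 0.76 (IL-2v), over 12, 15 and 16 genes with at least 5 CPM. A gene could enter through the library where it was high. The IL-15 list was split, with 3 genes at least 2-fold higher and 4 lower. These counts were 6 and 3 with IL-2 and 7 and 0 with IL-2v. With TMM scaling of each step the signs stood: 1.12 and -0.75 for STAT5 targets, 1.51, -1.25 and -1.15 for G2 and mitosis, and -0.40, 0.82 and 0.82 for the interferon response.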

How the results depend on the processing

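Each of the 30 named genes kept its sign and stayed at least 2-fold in all 360 alternative values. These genes were picked as the 15 highest and 15 lowest differences of the same data, the smallest being -1.70 for Emc9. Their staying past 2-fold was therefore likely beforehand and does not bear on genes nearer to 2-fold. A cell filter among the alternatives removed 0 cells from both libraries, so its values repeat the main result. The count of higher genes was 288 with totals without ribosomal protein and mitochondrial genes, 595 without the expression filter and 133 with a pseudocount of 10 CPM. The count of lower genes was 249 without the filter and 67 with that pseudocount, and 90 with either TMM or DESeq2 scaling. The median of S phase genes was -0.029 without cells of more than 2 times the median UMIs, -0.073 for the mean of single-cell CPM and -0.56 in cells without a UMI of Mki67 or Top2a. That of G2 and mitosis was 0.58 with a pseudocount of 10 CPM and -0.31 in cells without a UMI of Mki67 or Top2a. Those cells were picked by the absence of 2 cell cycle genes, so lower medians of both lists were likely beforehand. With TMM and DESeq2 scaling the medians were 0.39 and 0.39 for ribosome biogenesis, 0.17 and 0.18 for nuclear oxidative phosphorylation, and 0.18 and 0.19 for cytosolic ribosomal proteins. Nuclear oxidative phosphorylation was 0.0060 in cells without a UMI of Mki67 or Top2a, and effector transcription factors were -0.0011 without the filter. The difference in the share of cycling cells, 5.18 percentage points, was 3.94 at 1000 UMIs, 7.89 without thinning and 3.68 without cells of more than 2 times the median UMIs, thinned in a separate random draw (6.17% and 2.49%). By another rule, at least 3 UMIs of the S phase and mitosis lists, it was -17.0 points, with 64.4% at 50 and 81.4% at 5 IU/mL. Most cells of both libraries passed that rule, so it cannot single out cycling cells. The difference in glycolysis UMIs per cell, 19, was 9 at 1000 UMIs and 43 without thinning. The marker list of NK and gamma delta T cells went to -0.55 without cells with such markers, where 1 gene is left. Apart from fewer cells, genes or UMIs in these settings, the cause was not tested. No paired analysis was possible because each group has 1 library, and for the same reason no library could be left out.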
